A study of Mus musculus with 4 samples.

Results

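The clustered protocadherin genes of the mouse form the Pcdha, Pcdhb and Pcdhg clusters, which lie next to each other on chromosome 18. All 58 genes of the clusters were taken as members by name, 14 of Pcdha, 22 of Pcdhb and 22 of Pcdhg. The clusters were chosen with earlier results of these data known, and no gene of them was left out for its values. A member was measured where its promoter, from 1000 bp upstream to 500 bp downstream of a transcription start, or its first exon held at least 1 CpG site with 20 or more reads in every tumor. By this rule 23 members had a measured promoter, of 20135 genes in all, and 39 had a measured first exon, of 14799 genes. The 23 were among the 39, so 19 members had no measured site in either region.

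Tumors were grown from 344SQP, a parental lung adenocarcinoma line from a p53 mutant mouse model, or from 344SQR, its derivative with acquired resistance to anti-PD1, and their methylation was read by RRBS, bisulfite sequencing of a reduced part of the genome. The cells were injected under the skin of the leg of female 129Sv/Ev mice aged 12 to 16 weeks, which are syngeneic to the lines and keep their own immune cells. Mice of both groups received anti-PD1 into the peritoneum at 10 mg/kg from day 4 after injection, 4 doses in all, and the tumors were taken 24 hours after the last dose. There were 2 parental and 2 resistant tumors, each from a different mouse, and the labels do not say whether tumors of the same number share a batch. Each group stands for 1 cell line, and the tumor DNA holds that of host cells too.

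Clustered protocadherins are cell adhesion proteins best known from neurons, where each cell transcribes a small choice of them. The variable members each have their own promoter and a large first exon. In Pcdha and Pcdhg this exon codes for the outer part of the protein and is followed by shared exons. The C-type members at the ends of Pcdha and Pcdhg are chosen less at random. DNA methylation at a variable promoter goes with its silencing and keeps the insulator protein CTCF from binding there.

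The 4 libraries held 116794455 and 138331886 CpG calls in parental tumors 1 and 2, and 160548303 and 174689402 in resistant tumors 1 and 2. At the 479 CpG sites of the members a median of 87 and 91 reads covered a site in parental tumors 1 and 2, and 112 and 110 in resistant tumors 1 and 2. The lowest coverage of a member site was 22 reads and the highest 291. At 20 reads, 1 read moves a site by 5 percentage points, so values are given as means over the sites of a region. The intervals given for single sites cover counting error only.

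Coverage was uneven along the clusters. In mm10 coordinates Pcdha runs from 36930184 to 37187661, Pcdhb from 37264938 to 37524479 and Pcdhg from 37661793 to 37841873. Promoters were measured in 5 of 14 Pcdha, 3 of 22 Pcdhb and 15 of 22 Pcdhg members, and first exons in 8, 10 and 21. Members without a measured promoter had a median of 1 CCGG site, where the RRBS enzyme cuts, and 26 CpGs in the promoter, against 4 and 39 in measured ones. For first exons the medians were 3 CCGG sites and 86 CpGs against 7 and 106. Values for Pcdhb therefore come from 10 of its 22 genes, and only 4 of these had 5 or more sites in the first exon.

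Most first exons of the members were highly methylated, and those of Pcdhgc3 and Pcdhgc4 were low in all 4 tumors. Averaged over the Pcdhb members, the first exons had 71.6 and 74.5% methylation in the parental against 65.2 and 63.1% in the resistant tumors (73.1 ± 2.01 and 64.1 ± 1.54, SD, n = 2), a difference of -8.91 points. Over the Pcdha members it was 64.3 and 75.5% against 63.6 and 72.5% (69.9 ± 7.85 and 68.1 ± 6.31). Over the Pcdhg members it was 60.8 and 70.3% against 63.5 and 70.0% (65.5 ± 6.73 and 66.7 ± 4.63). The resistant tumors lay below both parental tumors in Pcdhb, by more than the spread within either line, while the lines overlapped in Pcdha (-1.84 points) and Pcdhg (1.23 points). Whether the clusters differ from each other in this was not tested. With each tumor left out in turn the Pcdhb difference ran from -10.3 to -7.49 points. The Pcdha difference was 3.60 without parental tumor 2, 2.62 without resistant tumor 1, -8.67 without parental tumor 1 and -6.30 without resistant tumor 2. In Pcdhg these values were 5.64, 4.54, -3.49 and -2.15. Over all first exons measured, the mean difference was -1.40 points and the median -0.181 points, at a level of 19.4% in parental tumors. Among the 2743 genes whose first exon lay between 20 and 80% on average, as most members did, the mean difference was -3.57 points.

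**Figure D1:**
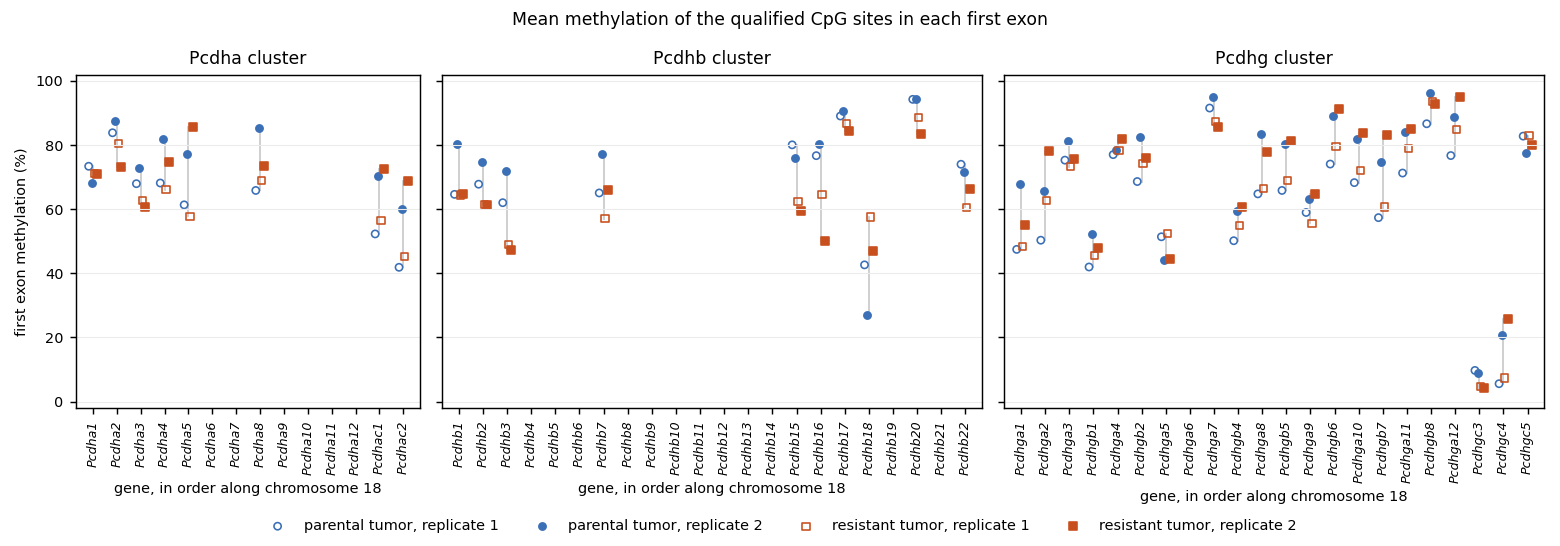
Mean methylation (percent) of the measured CpG sites in each first exon, by gene in order along each cluster, with 1 point for each tumor and a grey line over the range of the 4 tumors; genes without a point had no measured site. In Pcdhb the resistant tumors average 65.2 and 63.1% and the parental tumors 71.6 and 74.5%, and Pcdhgc3 and Pcdhgc4 lie far below the other Pcdhg genes.

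Promoters held fewer sites and lower levels. The mean over the Pcdha promoters was 53.6 and 65.4% in the parental and 58.5 and 73.4% in the resistant tumors (59.5 ± 8.32 and 66.0 ± 10.5). Over the Pcdhb promoters it was 44.5 and 63.9% against 43.4 and 47.0% (54.2 ± 13.7 and 45.2 ± 2.53), and over the Pcdhg promoters 47.8 and 61.1% against 49.7 and 59.5% (54.5 ± 9.42 and 54.6 ± 6.94). The lines overlapped in Pcdha and Pcdhg, and in Pcdhb resistant tumor 2 lay above parental tumor 1. The differences of 6.49, -9.03 and 0.118 points were within the spread of the tumors of a line. Without parental tumor 1 they were -1.47, -18.7 and -6.54 points, without parental tumor 2 12.0, 0.680 and 7.06, without resistant tumor 1 13.9, -7.24 and 5.08, and without resistant tumor 2 -0.942, -10.8 and -4.79. Over all promoters measured, methylation was 23.7% in parental and 21.7% in resistant tumors, and the median difference was -0.233 points. Among the 4438 promoters between 20 and 80% on average the mean difference was -5.45 points.

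Tumors of the same line differed from each other. Parental tumor 2 lay above parental tumor 1 and resistant tumor 2 above resistant tumor 1 in 20 of 23 member promoters, against 36.1% of all promoters, and in 23 of 39 first exons, against 35.4% of all first exons. Among regions of 20 to 80% methylation the shares were 50.6% of promoters and 58.5% of first exons. The pattern held in all 12 variable Pcdhg promoters and in 15 of 18 variable Pcdhg first exons, but in 2 of 10 Pcdhb first exons. Over all member promoters the tumors numbered 2 exceeded those numbered 1 by 13.8 points in the parental and 10.1 points in the resistant line, while the lines differed by 0.309 points. Chromosome Y took 0.0406 and 0.0254% of CpG calls in the parental line and 0.0555 and 0.0178% in the resistant line, so the tumors numbered 2 were also the lower in both lines there. The hosts were female. The part of this in the methylation values was not tested.

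**Figure D2:**
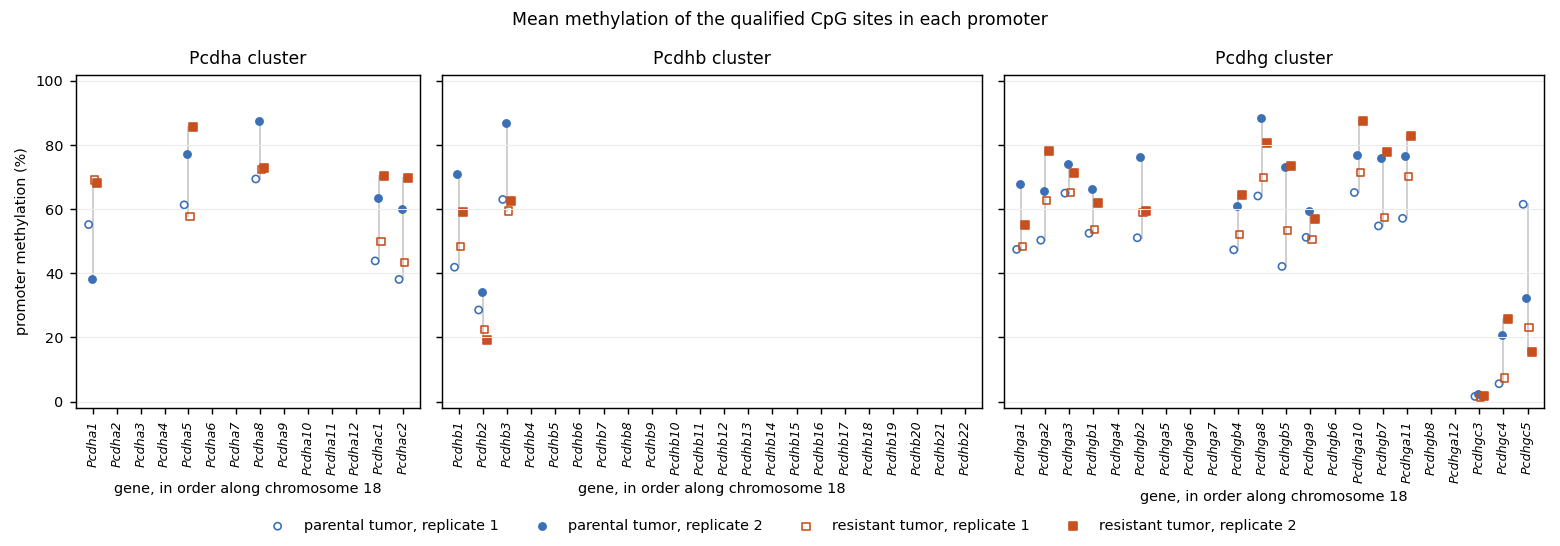
Mean methylation (percent) of the measured CpG sites in each promoter, by gene in order along each cluster, with 1 point for each tumor and a grey line over the range of the 4 tumors; genes without a point had no measured site. In all 12 variable Pcdhg promoters the filled points (tumors numbered 2) lie above the open points of the same line, and the Pcdhgc3 promoter lies between 1.37 and 2.45% in the 4 tumors.

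A region was called at a false discovery rate (FDR) under 0.05 over all regions of its kind, in a test that takes every read as independent and holds no term for how tumors of a line vary. By this test 12 of 23 member promoters were called, 5 lower and 7 higher in resistant tumors, against 38.5% of all promoters (29.5% lower and 9.03% higher). Of first exons 27 of 39 were called, 16 lower and 11 higher, against 32.8% of all first exons (23.5% lower and 9.32% higher). Among regions of 20 to 80% methylation 73.8% of promoters and 73.3% of first exons were called, so the members' shares of 52.2 and 69.2% were no higher than those of regions at similar levels. The tumors of the lines did not overlap in 4 member promoters, against 40.1% of all promoters, and in 13 first exons, against 38% of all first exons. Of these 13, 8 were Pcdhb first exons. By edgeR's quasi-likelihood test, which takes in the spread between tumors, no member was called, 0 of 23 promoters and 0 of 39 first exons, against 0.0745% of all promoters and 0.0204% of all first exons. At an unadjusted p under 0.05 edgeR's test gave 0 member promoters and 2 first exons, those of Pcdhgc3 (adjusted p = 0.516) and Pcdhb16 (adjusted p = 0.596), against 8.79% of all promoters and 8.04% of all first exons. With 2 tumors against 2 an exact permutation test of a single value cannot give a p below 0.333, so none is given. The direction of the differences depended on single tumors. Averaged over all member promoters the difference was -7.03 points without parental tumor 1 and 7.29 without parental tumor 2. Without resistant tumor 1 it was 5.39 points, and without resistant tumor 2 -4.74. Over all member first exons these values were -6.31, 1.86, 0.416 and -4.45 points. Of the 12 called promoters 5 changed direction in 1 or more of these runs, as did 8 of the 27 called first exons. The share of all regions that did so is not given. Counts of called members are not given for these runs, since a line is then read from 1 tumor. Genes that fall outside the rule for named genes were chosen after their values were seen, here and below.

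In the Pcdhb cluster all 10 measured first exons were called, 9 lower and 1 higher in resistant tumors. By the same test on reads 32.8% of all first exons were called, and 73.3% of those of 20 to 80% methylation. By edgeR's test 0 of the 10 were called. Pcdhb1 (14 sites) had 64.6 and 80.5% in the parental and 64.4 and 64.8% in the resistant tumors, and Pcdhb2 (18 sites) had 67.8 and 74.8% against 61.5 and 61.4%. Pcdhb7 (5 sites) had 65.1 and 77.2% against 57.1 and 66.1%, and Pcdhb17 (11 sites) had 89.1 and 90.8% against 86.7 and 84.4%. The lines did not overlap in Pcdhb2 and Pcdhb17, and overlapped in Pcdhb1 and Pcdhb7. Pcdhb16, with 3 sites at 1986 to 2014 bp of the exon, had the largest difference of the cluster, with 76.7 and 80.4% against 64.5 and 50.2% (-21.2 points). Of the 5 others, each with 2 to 4 sites, Pcdhb3, Pcdhb15, Pcdhb20 and Pcdhb22 were lower by differences of -18.9 to -8.30 points without overlap. Pcdhb18 was higher, with 42.6 and 27.1% against 57.5 and 47.0%, also without overlap. Leaving out parental tumor 2 ended the calls of Pcdhb1 (-0.0260 points), Pcdhb2 (-6.34) and Pcdhb7 (-3.48) and brought Pcdhb18 to 9.63 points. Without resistant tumor 2 Pcdhb17 was not called (-3.24) and Pcdhb16 was at -14.1 points. Pcdhb7 was also not called without resistant tumor 1 (-5.00), nor was Pcdhb22 without it (-6.60) or without parental tumor 1 (-8.18). The differences of Pcdhb1 and Pcdhb7 were -15.8 and -15.6 points without parental tumor 1, and that of Pcdhb1 was -13.2 without promoter sites. At a minimum of 50 reads Pcdhb2 was at -1.79 points and was not called.

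Of the 3 measured Pcdhb promoters, Pcdhb2 (7 sites) had 28.6 and 34.2% in the parental and 22.5 and 19.2% in the resistant tumors, and Pcdhb1 (7 sites) had 41.9 and 70.8% against 48.3 and 59.1%. Pcdhb2 was the least methylated promoter of the cluster, was called (-10.5 points) and did not overlap between the lines, while Pcdhb1 overlapped and was not called. In Pcdhb2 the site at 37295255, with 22 to 37 reads, differed by -55.3 points. The 6 other sites had 19.0 and 25.5% against 21.7 and 16.6%, with overlap (-3.07 points), and were the sites left at a minimum of 50 reads. Pcdhb3, with 2 sites, was called too (-13.9 points). The call of Pcdhb2 was lost without resistant tumor 2 (-8.90 points) and that of Pcdhb3 without parental tumor 2 (-2.02 points; -25.8 without parental tumor 1). The Pcdhb1 promoter was called lower without parental tumor 1 (-17.1 points) and without resistant tumor 2 (-8.08 points), and higher without parental tumor 2 (11.8 points).

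Within Pcdhb2 the level rose with distance from the start of the first exon. The 2 sites just before the exon had means of 11.0 and 10.9% in the parental and 6.53 and 3.49% in the resistant tumors. The 5 sites in its first 500 bp had 35.6 and 43.5% against 28.9 and 25.5%, and the 13 sites beyond had 80.2 and 86.8% against 74.0 and 75.3%. The means of the resistant tumors were lower in each stretch, but in the first 500 bp this rested on the site at 37295255. The other 4 sites there had 22.9 and 32.8% against 29.3 and 23.1%, with overlap (-1.65 points). In Pcdhb1 the 7 sites in the first 500 bp overlapped between the lines (41.9 and 70.8% against 48.3 and 59.1%), and the 7 sites beyond did not (87.4 and 90.1% against 80.5 and 70.5%).

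**Figure D3:**
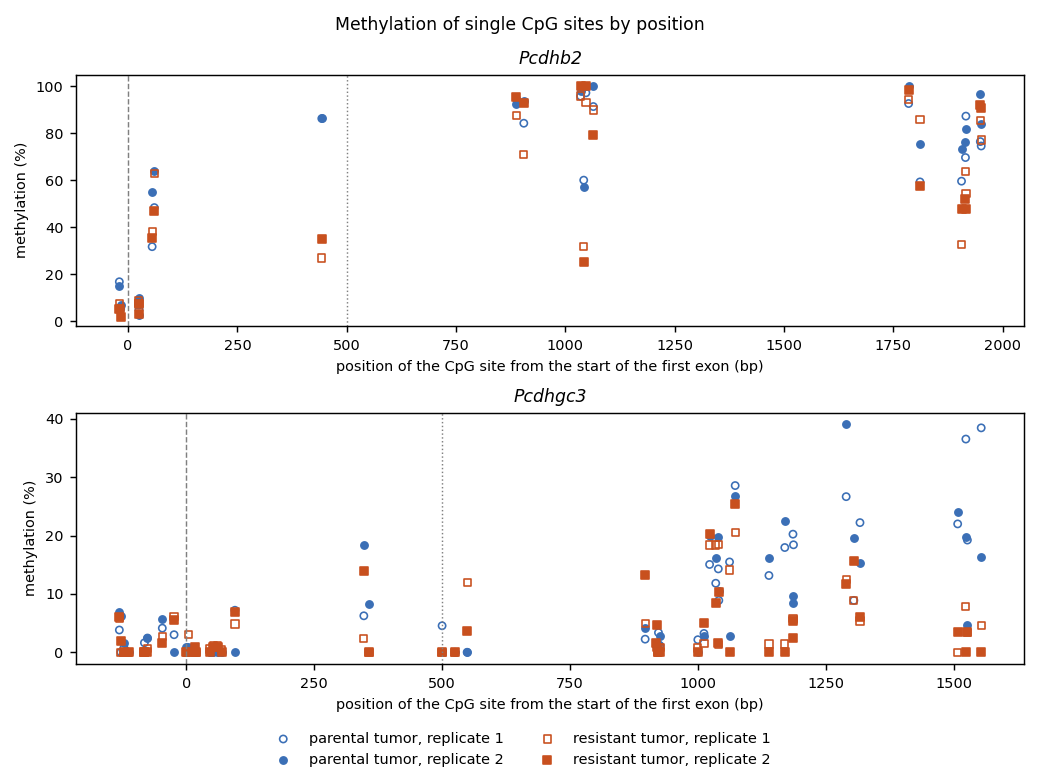
Methylation (percent) of each measured CpG site of Pcdhb2 and Pcdhgc3 by its distance (bp) from the start of the first exon (dashed line; the dotted line marks 500 bp), with 1 point for each tumor. Sites of Pcdhb2 near the start are the lowest of the gene, and in Pcdhgc3 the parental tumors, at 18.1 and 15.5% on average, lie above the resistant tumors, at 7.91 and 6.28%, from 1000 bp on.

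Among the C-type members, Pcdhgc3 was nearly unmethylated. Its promoter (21 sites) had 1.61 and 2.45% in the parental and 1.37 and 1.84% in the resistant tumors, and its first exon (38 sites) had 9.71 and 8.79% against 4.82 and 4.37%. The lines overlapped in the promoter, which was not called, and were apart in the first exon, which was called at -4.66 points and in no run with 1 tumor left out lost its call. The difference lay in the 19 sites from 1000 bp on, with 18.1 and 15.5% against 7.91 and 6.28%. In edgeR's test the log2 odds ratio of the first exon was -0.85 ± 0.30 (SE), with an adjusted p of 0.516. This stretch is also the promoter of BC037039, a gene on the opposite strand, whose 18 sites differed by -10.2 points, so the sites belong to both genes. Without sites that lie in any promoter window the first exon of Pcdhgc3 differed by 1.39 points and was not called. Without sites that lie in other first exons it differed by -19.3 points.

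Pcdhgc4 had the same 15 sites in both regions, with 5.58 and 20.9% in the parental and 7.37 and 25.8% in the resistant tumors. Both tumors numbered 2 were about 15 to 18 points above the tumors numbered 1, the lines overlapped and neither region was called. Pcdhgc4 was called higher without parental tumor 2 (11.0 points) and without resistant tumor 1 (12.6 points), and lower without parental tumor 1 (-4.33 points) and without resistant tumor 2 (-5.88 points). At equal depth it was called higher in both regions (3.48 points). The Pcdhgc5 promoter, with 2 sites, had 61.5 and 32.4% against 23.0 and 15.4%, and its first exon (13 sites) had 82.8 and 77.6% against 82.9 and 79.9%. The promoter was called at -27.8 points, the largest difference of a member promoter, without overlap, and was not called without parental tumor 1 (-13.2 points). In edgeR's test its adjusted p was 0.579. The 11 other sites of the first exon, from 2010 bp on, went the other way, with 86.7 and 85.8% against 93.8 and 91.6%. The first exon as a whole was called at 1.18 points, and differed by -3.46 without parental tumor 2 and -0.314 without resistant tumor 1, neither of them called, and by 3.78 without parental tumor 1 and 2.68 without resistant tumor 2. At a minimum of 10 reads it was at -0.391 points, not called, at 50 reads at 6.99 and at equal depth at 0.101, both called.

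In their first exons Pcdhac1 and Pcdhac2 lay between the low and the high C-type members. The Pcdhac1 promoter (22 sites) had 43.9 and 63.6% in the parental and 49.9 and 70.3% in the resistant tumors, and its first exon (24 sites) 52.3 and 70.4% against 56.5 and 72.5%. The Pcdhac2 promoter (22 sites) had 38.1 and 60.1% against 43.5 and 69.7%, and its first exon (45 sites) 41.9 and 60.1% against 45.1 and 68.9%. In all 4 regions the lines overlapped and the tumors numbered 2 were higher, and all 4 were called higher in resistant tumors, by 6.39, 3.18, 7.51 and 6.06 points. Each turned when 1 tumor was left out. Without parental tumor 1 these differences were -3.96, -6.24, -3.50 and -3.04 points (the last 2 not called), and without resistant tumor 2 they were -3.85, -4.81, -5.63 and -5.83. Without parental tumor 2 they were 16.2, 12.2, 16.5 and 14.2, and without resistant tumor 1 16.6, 11.2, 20.6 and 17.9. The 6 sites of the Pcdhac1 first exon beyond 500 bp differed by -9.68 points, and at a minimum of 10 reads this first exon was not called (2.61 points).

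Among the variable Pcdha members, Pcdha1 (13 sites) had 73.4 and 68.3% in the parental and 71.0 and 70.9% in the resistant first exons. Pcdha3 (15 sites) had 68.0 and 73.0% against 62.8 and 60.7%, and Pcdha4 (8 sites) had 68.2 and 81.8% against 66.1 and 74.7%. Pcdha3 was called lower (-8.70 points) without overlap, and Pcdha1 and Pcdha4 overlapped and were not called. Pcdha2, with 4 sites, was also called lower without overlap (-8.81 points), but not without resistant tumor 2 (-5.17 points). Pcdha4 was called lower without parental tumor 1 (-11.4 points) and without resistant tumor 2 (-8.89 points), and Pcdha1 without parental tumor 2 (-2.40 points) and at a minimum of 50 reads (-6.37 points). Of the promoters with 2 or 3 sites, Pcdha1 had 55.2 and 38.3% in the parental and 69.1 and 68.3% in the resistant tumors. Its difference of 21.9 points was the largest rise of a member promoter, was called without overlap, and was 13.5 points without parental tumor 2. In the same first exon the 10 sites from 2146 bp on went the other way, with 78.8 and 77.3% against 71.6 and 71.8%. Pcdha5 and Pcdha8, with 3 sites each in the first exon, were not called in either region. The Pcdha5 promoter was called in each run with 1 tumor left out, at -15.4, 10.4, 16.3 and -11.5 points without parental tumors 1 and 2 and resistant tumors 1 and 2, and at a minimum of 10 reads it was called at -14.9 points. Its first exon was called in 3 of these runs, not without parental tumor 2. Without parental tumor 1 Pcdha5 did not hold the 3 sites alone, so tumor and sites changed together in that run. In Pcdha8 the promoter was called at -14.8 points and the first exon at -14.2 points without parental tumor 1.

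Most variable Pcdhg members were highly methylated and differed little between the lines. In the first exons Pcdhga3 (15 sites) had 75.3 and 81.2% in the parental and 73.3 and 75.6% in the resistant tumors, and Pcdhga4 (16 sites) had 77.0 and 78.4% against 78.4 and 82.0%. Pcdhga8 (17 sites) had 64.8 and 83.6% against 66.4 and 77.8%, and Pcdhga10 (26 sites) had 68.3 and 82.0% against 72.0 and 83.8%. Pcdhga11 (19 sites) had 71.3 and 84.1% against 78.8 and 85.1%, and Pcdhga12 (14 sites) had 76.7 and 88.9% against 84.9 and 95%. Of these 6, all called, Pcdhga3 and Pcdhga8 were lower and the others higher, and only in Pcdhga4 did the lines not overlap, by less than 0.1 points. The differences were -3.84 points in Pcdhga3, 2.51 in Pcdhga4, -2.06 in Pcdhga8, 2.78 in Pcdhga10, 4.30 in Pcdhga11 and 7.14 in Pcdhga12. Pcdhga8, Pcdhga10 and Pcdhga11 turned when 1 tumor was left out, and the other 3 lost their calls. Leaving out parental tumor 1 gave -6.79, 1.84 (not called), -11.5, -4.05, -2.10 and 1.07 (not called). Without parental tumor 2 they were -0.894 and 3.17 (neither called), 7.34, 9.61, 10.7 and 13.2. Leaving out resistant tumor 1 put Pcdhga3, Pcdhga4, Pcdhga8, Pcdhga10, Pcdhga11 and Pcdhga12 at -2.68, 4.32, 3.64 (not called), 8.71, 7.43 and 12.2. Without resistant tumor 2 the 6 were at -7.11, 0.688 (not called), -7.77, -3.15, 1.16 and 2.13 (the last 2 not called). At a minimum of 50 reads Pcdhga4 (1.1 points) and Pcdhga11 (0.782) were not called, nor was Pcdhga4 with merged strands (2.23) or Pcdhga8 at equal depth (-3.26). Without promoter sites Pcdhga10 was at -0.241 points, not called, and Pcdhga3 at -8.81, and over sites of 1 first exon only Pcdhga8 was at -4.04.

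Pcdhga1 (10 sites) and Pcdhga2 (6 sites) had the same sites in promoter and first exon. Pcdhga1 had 47.5 and 67.8% in the parental and 48.3 and 55.0% in the resistant tumors, and Pcdhga2 had 50.3 and 65.6% against 62.7 and 78.1%. Both were called, Pcdhga1 lower (-6.03 points) and Pcdhga2 higher (12.4 points), with overlap between the lines. The first exon of Pcdhga1 differed by -16.2 points without parental tumor 1, -1.01 without parental tumor 2 (not called), -2.67 without resistant tumor 1 and -9.38 without resistant tumor 2. Its promoter differed by 4.15 points without parental tumor 2, not called. In that run the promoter and first exon of Pcdhga1 did not hold the same sites, so -1.01 is not a change of tumor alone. Pcdhga2 was at 4.83 and 4.71 points without parental tumor 1 and resistant tumor 2, not called, and at 20 and 20.2 points without parental tumor 2 and resistant tumor 1.

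Pcdhga5 (12 sites) had 51.4 and 44.2% in the parental and 52.4 and 44.5% in the resistant first exons, and Pcdhga9 (10 sites) had 59.0 and 63.2% against 55.6 and 64.7%. Pcdhgb1 (5 sites) had 42.0 and 52.2% against 45.6 and 47.9%, Pcdhgb2 (13 sites) had 68.6 and 82.6% against 74.3 and 75.8%, and Pcdhgb4 (9 sites) had 50.2 and 59.3% against 54.9 and 60.6%. Pcdhgb7 (12 sites) had 57.4 and 74.9% against 60.7 and 83.0%, and Pcdhgb8 (7 sites) had 86.7 and 96.3% against 93.5 and 92.9%. These 7 overlapped between the lines and were not called. Their levels ran from about 47% in Pcdhgb1 and Pcdhga5 to over 90% in Pcdhgb8. With 1 tumor left out, calls were made for Pcdhgb7 (14.5 points without parental tumor 2, 16.9 without resistant tumor 1, -3.00 without parental tumor 1 and -4.47 without resistant tumor 2), Pcdhgb4 (7.60 and 5.86), Pcdhgb8 (6.56 without parental tumor 2 and -3.10 without parental tumor 1), Pcdhga5 (4.31 without parental tumor 1), Pcdhgb2 (-7.48 without parental tumor 1 and 6.45 without parental tumor 2) and Pcdhga9 (-5.49 without resistant tumor 2). Pcdhgb5 (13 sites) had 65.9 and 80.3% against 69.0 and 81.4%, and Pcdhgb6 (7 sites) had 74.1 and 89.0% against 79.7 and 91.3%. Both were called higher (2.11 and 3.94 points) with overlap, and differed by -4.36 and -3.49 points without parental tumor 1, by -4.08 and -1.85 without resistant tumor 2 (Pcdhgb6 not called), by 9.35 and 11.4 without parental tumor 2 and by 8.29 and 9.74 without resistant tumor 1. Without promoter sites Pcdhgb5 was not called (1.04 points), while Pcdhgb2 (1.93) and Pcdhgb7 (10.5) were. Pcdhga7, with 4 sites, was called lower without overlap (-6.79 points; -4.32 at a minimum of 10 reads), and Pcdhga6 had no measured site.

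In the variable Pcdhg promoters Pcdhga3 (10 sites) had 65.0 and 74.1% in the parental and 65.3 and 71.2% in the resistant tumors, Pcdhga8 (11 sites) 64.1 and 88.4% against 69.8 and 80.8%, and Pcdhga9 (8 sites) 51.2 and 59.6% against 50.4 and 57.0%. Pcdhga10 (9 sites) had 65.2 and 76.8% against 71.4 and 87.6%, and Pcdhga11 (12 sites) had 57.1 and 76.5% against 70.3 and 82.7%. Pcdhgb2 (5 sites) had 51.1 and 76.2% against 58.9 and 59.5%, Pcdhgb4 (5 sites) 47.3 and 61.0% against 52.1 and 64.3%, and Pcdhgb7 (7 sites) 54.8 and 75.9% against 57.5 and 78.0%. The lines overlapped in all 8, and the tumor numbered 2 was the higher of its line in each. Pcdhga10 and Pcdhga11 were called higher (8.49 and 9.71 points) and Pcdhga8 lower (-0.986 points). With parental tumor 1 left out these 3 differed by 2.72 and 0.0172 (neither called) and -13.1 points, without parental tumor 2 by 14.3, 19.4 and 11.2, without resistant tumor 1 by 16.6, 15.9 and 4.51 (Pcdhga8 not called), and without resistant tumor 2 by 0.366 and 3.50 (neither called) and -6.49. Pcdhga8 was also at 0.0191 points at a minimum of 50 reads and was not called at equal depth (-0.888 points). Pcdhgb5, with 3 sites, was called at 5.67 points and was at -9.87 without parental tumor 1, -4.35 without resistant tumor 2 (not called), 21.2 without parental tumor 2 and 15.7 without resistant tumor 1, and at 10.1 at a minimum of 50 reads, where Pcdhga11 was at 6.43. With 1 tumor left out, calls were made for Pcdhgb4 (10.9 points without parental tumor 2 and 10.2 without resistant tumor 1), Pcdhgb7 (12.9 and 12.6, and -8.21 without parental tumor 1 and -7.90 without resistant tumor 2), Pcdhgb2 (-17.0 without parental tumor 1 and 8.13 without parental tumor 2), Pcdhga3 (-5.92 without parental tumor 1) and Pcdhga9 (-4.95 without resistant tumor 2).

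Taken by position over all measured sites, methylation was lowest before the first exon and highest in its far part. Over all members the 20 sites before the first exon averaged 22.8 ± 6.07% in parental and 25.5 ± 7.61% in resistant tumors, the 170 sites in its first 500 bp 53.0 ± 11.2 and 55.2 ± 8.86%, and the 289 sites beyond 68.6 ± 4.19 and 66.7 ± 2.91%. The 20 sites come from 4 genes, 9 of them from Pcdhgc3 with 2.15% in parental tumors, against 37.7% at 4 sites of Pcdhac1 and 52.7% at 5 of Pcdhga11, so the stretches do not hold the same genes. The lines did not differ beyond their spread in any of the 3 stretches. Promoter sites over all genes averaged 10.0 ± 1.53% in parental and 9.67 ± 1.30% in resistant tumors. Between 20 and 80% lay 59.7 and 45.1% of member sites in the parental and 56.6 and 42.0% in the resistant tumors.

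Single sites with large differences occurred in each cluster. In Pcdha the largest difference without overlap was at 36930321 in the first exon of Pcdha1, with 33.3% (12 of 36 reads, Wilson 95% interval 20.2 to 49.7) and 2.50% (1 of 40, 0.443 to 12.9) in the parental and 74.1% (20 of 27, 55.3 to 86.8) and 63.4% (26 of 41, 48.1 to 76.4) in the resistant tumors. In Pcdhb it was at 37295255 in the first exon of Pcdhb2, with 86.2% (25 of 29, 69.4 to 94.5) and 86.4% (19 of 22, 66.7 to 95.2) against 26.9% (7 of 26, 13.7 to 46.1) and 35.1% (13 of 37, 21.8 to 51.2). In Pcdhg it was at 37819796 in the first exon of Pcdhgc5, with 66.2% (43 of 65, 54.0 to 76.5) and 40.5% (15 of 37, 26.4 to 56.5) against 23.0% (20 of 87, 15.4 to 32.9) and 16.7% (13 of 78, 10.0 to 26.5). At the Pcdhb2 site the intervals of the lines were apart, and at the other 2 sites those of the nearest tumors overlapped. These sites were the extremes of 119, 65 and 295 sites. The lines did not overlap at 30 of the 119 Pcdha sites, 20 of them lower in resistant tumors, at 32 of the 65 Pcdhb sites, 29 lower, and at 81 of the 295 Pcdhg sites, 46 lower. These are 25.2, 49.2 and 27.5% of the sites, against 21.2% of the promoter and first exon sites of all genes. Among sites of 20 to 80% methylation the shares were 23.9, 58.3 and 25.2%, against 28.6% for all genes. The shares of sites over all genes were added after the other values were seen.

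Some calls ended when 1 site was left out. A setting added after the values were seen left the site of the largest difference out of each member. It called 10 of 23 promoters (4 lower and 6 higher) and 21 of 39 first exons (15 lower and 6 higher). The shares of all promoters and first exons, 38.5 and 32.8%, come with sites left out of members only. The calls ended in the promoters of Pcdha1 (7.47 points) and Pcdhgb5 (2.52) and in the first exons of Pcdhb20 (-4.87), Pcdhb22 (-8.99), Pcdhga4 (1.84), Pcdhga10 (2.26), Pcdhga11 (3.14), Pcdhgb5 (1.29) and Pcdhgb6 (2.87). The differences of Pcdhb22 (-9.38 with all sites) and Pcdhga10 (2.78) stayed about as large. Their lost calls therefore do not show that the difference lay in that site. The site left in Pcdhb22 had 75.4 and 75.8% against 57.7 and 75.4%, so its lines now overlapped, and only resistant tumor 1 was clearly lower. In Pcdhga4 the lines now overlapped too. In this setting the first exon of Pcdha1 was called lower (-4.06). The Pcdhga8 promoter turned (0.191), and the first exons of Pcdha2 (-5.85), Pcdhac1 (4.86), Pcdhb15 (-10.8), Pcdhb18 (9.69), Pcdhga3 (-2.53), Pcdhga8 (-0.576) and Pcdhgc5 (4.07) kept their calls at other sizes, and Pcdha2 and Pcdhb18 now overlapped.

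Order along a cluster was only loosely related to level. Over the 18 variable Pcdhg first exons, Spearman's rho between order and methylation was 0.434 in parental and 0.598 in resistant tumors, and over the 12 variable Pcdhg promoters it was 0.287 and 0.434. Over the 10 Pcdhb first exons rho was 0.394 and 0.236, and over the 6 variable Pcdha first exons -0.0857 and 0.0857. The later variable Pcdhg members were somewhat more methylated, up to the low levels of Pcdhgc3 and Pcdhgc4. Neighbouring members are not independent, and the 4 tumors share these genes.

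Most promoters measured next to the clusters had little methylation. Within 500 kb before Pcdha, promoters of 14 of 24 genes were measured, and 12 of them lay below 3.5% in every tumor, among them the nearest, Vaultrc5 (1.19 and 1.54% in the parental and 0.943 and 2.30% in the resistant tumors). The 2 others were highly methylated, Eif4ebp3 with 82.9 and 77.2% against 83.0 and 74.7%, and AC115631.1 with 94.8 and 93.6% against 91.2 and 94.3%. After Pcdhg the nearest, Diaph1, had 1.04 and 1.37% against 1.12 and 1.44%, and 2 of the 13 measured were highly methylated, Mir6980 with 87.9 and 86.1% against 83.1 and 79.5% and Pcdh12 (1 site) with 81.2 and 85.7% against 83.8 and 68.8%. Between Pcdhb and Pcdhg, Taf7 had 1.81 and 2.46% against 2.01 and 2.52%, and 3222401L13Rik had 29.0 and 37.5% against 30.9 and 29.6%. No neighbour before Pcdha was called. Rell2, after Pcdhg, was called higher, with 2.89 and 5.03% against 7.56 and 11.9%, a rise of 5.74 points that was 3.59 without resistant tumor 2 and was not called at a minimum of 50 reads (0.139 points) or with the 5′-most start alone (0.210). At a minimum of 10 reads it was at 3.75 points, and over sites that lie in 1 promoter window only at 29.1. Hdac3 (2.40 points) and Arap3 (-1.70 points), also after Pcdhg, were called, but Hdac3 not without parental tumor 1 (2.11) or resistant tumor 2 (1.32), and Arap3 not without parental tumor 2 (-1.52). Hdac3 was also not called at a minimum of 10 reads (1.21) or 50 reads (0.139), with merged strands (2.51), at equal depth (2.06) or with RefSeq transcripts (0.785). Hdac3 and Rell2 start at 37955016 and 37955139, so their promoter windows overlap. Gm8242, between Pcdhb and Pcdhg, was called lower with 52.4 and 23.2% against 34.6 and 10.6% over 2 sites, and differed by -0.547 and -3.19 points, not called, without parental tumor 1 and without resistant tumor 2, and by -29.8 and -27.2 without the others. In all 4 of 30 measured neighbours (13.3%) were called by the test on reads, against 38.5% of all promoters, and 0 by edgeR's test, against 0.0745%, where 1 had an unadjusted p under 0.05.

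Protocadherins outside the clusters were measured as well. Of 12 such genes 11 had a measured promoter and 6 (54.5%) were called, 3 lower and 3 higher, against 38.5% of all promoters and 73.8% of those of 20 to 80% methylation. Pcdh11x had 84.4 and 80.1% in the parental and 67.6 and 70.5% in the resistant tumors, and Pcdh19 had 39.4 and 37.9% against 33.7 and 28.8%. Both were lower without overlap, by -13.2 and -7.41 points, and Pcdh19 was at -4.93 without resistant tumor 2. Pcdh11x was at -27.4 points at a minimum of 50 reads. Pcdh18 was called lower without overlap (-4.48 points), also with any tumor left out. Pcdh7 and Pcdh8 were called higher (4.03 and 4.72 points) with overlap, at 31.6 and 64.3% against 38.0 and 66.0% and at 33.3 and 55.0% against 39.7 and 58.1%. Both turned when 1 tumor was left out, to -12.3 and -7.18 points without parental tumor 1 and -9.98 and -4.48 without resistant tumor 2, against 20.3 and 14.2 without parental tumor 2 and 18 and 13.9 without resistant tumor 1, all called. With the 5′-most start alone Pcdh7 was called at -2.51 points, with RefSeq transcripts at -2.44, and at a minimum of 50 reads it was not called (0.620), while over sites of 1 promoter window only it was at 8.51. Pcdh8 was at 2.56 and 1.02 points at minimums of 10 and 50 reads. Pcdh10 was called higher, with 31.3 and 42.9% against 42.8 and 44.7%, and differed by 0.922 points without parental tumor 1 and 5.73 without resistant tumor 2, not called, and by 12.4 without parental tumor 2 and 10.8 at a minimum of 50 reads.

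Genes that control the clusters were mostly unmethylated. All 24 of these promoters were measured, among them Ctcf (1.04 and 1.08% against 1.26 and 1.09%), and 5 (20.8%) were called, all lower in resistant tumors, against 38.5% of all promoters. Smc1a, a cohesin gene on chromosome X, had 26.8 and 30.6% in the parental and 28.4 and 3.80% in the resistant tumors. Stag2, a cohesin gene on the same chromosome, had 29.1 and 20% against 23.1 and 13.6%. Smc1a was low in resistant tumor 2 alone, and in both genes the lines overlapped. Without resistant tumor 2 neither was called (-0.313 and -1.49 points). Smc1a was also not called without parental tumor 2 (-10.7 points) and was at -24.9 without resistant tumor 1. Stag2 was not called without parental tumor 1 (-1.70 points) and was at -11.1 and -11.0 points without parental tumor 2 and resistant tumor 1, and at 0.625 points, not called, over sites that lie in 1 promoter window only. The de novo methyltransferase gene Dnmt3b was at 2.19% in parental and 1% in resistant tumors, and was called, as was Tet3 (-0.361 points), which kept its call only without resistant tumor 1. Single values are given for these 4 of the 5. Of 13 promoters of genes whose proteins act with clustered protocadherins, 3 (23.1%) were called, Fyn and Ret lower and Cyfip2 higher, each by under 5 points. Fyn and Ret did not overlap. Cyfip2 overlapped, with 9.14 and 19.1% against 12.5 and 22.8%, and was at -1.47 points without parental tumor 1 (not called), -1.65 without resistant tumor 2, 8.53 and 8.71 without the others, -0.197 with the 5′-most start alone (not called) and 2.05 with RefSeq transcripts. Ret was at -3.08 points in both of these settings. Pcdh7, Pcdh8, Pcdh18, Dnmt3b, Tet3, Fyn, Ret, Cyfip2 and Ctcf were named after their values were seen. By edgeR's test 0 of the 11, 24 and 13 promoters in these lists were called, and 1, 1 and 2 had an unadjusted p under 0.05.

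Promoters of genes of other cell types were also measured. Of 16 leukocyte genes 8 were measured, with a mean of 43.5 and 53.0% in the parental and 37.5 and 38.0% in the resistant tumors, and 5 were called, 4 lower and 1 higher, of which 4 are described singly. Of 9 endothelial and stromal genes 7 were measured, with 40.4 and 50.6% against 33.0 and 49.6%, and 4 were called, Col1a2 and Tie1 lower and Kdr and Pdgfra higher. Of 7 epithelial genes 6 were measured, with 12.7 and 10.1% against 11.0 and 7.28%, and Cldn4, Krt18 and Krt19 were called, all lower. These shares of 62.5, 57.1 and 50% compare with 38.5% of all promoters and 73.8% of those of 20 to 80% methylation. Both resistant tumors lay below the parental ones in the mean of the leukocyte list (-10.5 points), and the other lists overlapped. Without Adgre1, left out after its value was seen, the leukocyte mean was 40.2 and 49.4% against 37.6 and 42.1%, with overlap (-4.91 points). In single genes, Adgre1 (1 site) had 65.9 and 78.3% against 36.2 and 9.23%, a difference of -49.4 points. It was at -20.2 points without parental tumor 2 and at -17.5 at a minimum of 10 reads. Adgre1 did not hold that 1 site alone in these settings, so without parental tumor 2 tumor and sites changed together. Cd37 (1 site) had 32 and 40.2% against 19.1 and 26.1%, and Cd3e (2 sites) 81.1 and 75.8% against 81.5 and 46.6%. Itgal (6 sites) had 33.7 and 60.3% against 47.6 and 71.0%, Kdr (23 sites) 8.48 and 13.2% against 11.4 and 26.8%, and Col1a2 (4 sites) 20.8 and 25.7% against 18 and 14.4%. Pdgfra had 14.3 and 27.1% against 16.0 and 35.0%, and was at -1.52 points without parental tumor 1 (not called), -4.64 without resistant tumor 2, 11.3 without parental tumor 2 and 14.4 without resistant tumor 1. With RefSeq transcripts it was not called (2.99). Krt19 was not called without parental tumor 1 (1.12 points) or resistant tumor 2 (-0.796), nor Krt18 without parental tumor 1 (-0.965), which was at -0.454 without resistant tumor 1. Tie1 (1 site) had 58.5 and 89.1% against 46.2 and 75.9%, and Cldn4 (3 sites) 39.8 and 30.7% against 35.5 and 16.7%. Without resistant tumor 2, Cd3e, Cldn4, Itgal, Kdr and Col1a2 were not called (3.08, 0.274, 0.668, 0.507 and -5.28 points). Without parental tumor 1, Cd3e, Cldn4 and Itgal were not called (-11.7, -4.64 and -0.963). Without parental tumor 2, Cd37, Col1a2 and Tie1 were not called (-9.45, -4.67 and 2.53), and without resistant tumor 1, Cd37 and Tie1 were not called (-10.0 and 2.10). Larger differences than with all tumors were seen without resistant tumor 1 in Cd3e (-31.9 points), Cldn4 (-18.6), Itgal (24.0) and Kdr (16.0), without parental tumor 2 in Itgal (25.7), and in Tie1 without parental tumor 1 (-28.1) or resistant tumor 2 (-27.6). By edgeR's test 0 genes of these 3 lists were called and 1, Adgre1, had an unadjusted p under 0.05. No expression was measured here, and the part of host cells in the values of the members was not tested.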

How the data were processed

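Per the labels, 4 tumors were measured, 2 of each line. The authors trimmed 50-base single reads (Trim Galore 0.4.1, cutadapt 1.9.1), mapped them to mm10 with Bismark and Bowtie 1.1.2, kept uniquely mapped reads and called CpG methylation, all as given in the submitters' processing notes. They deposited, in the format of methylKit, for each CpG and strand, the count of covering reads and their methylated percent; neither is normalized. Similar first exons share sequence, and reads that map to several are lost.

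A site was kept if it had 20 or more reads in each of the 4 tumors (1081201 sites). In runs with 1 tumor left out some regions did not hold the same sites, so tumor and sites changed together there. Promoters were the windows from 1000 bp before to 500 bp after every transcription start in the GENCODE vM21 basic annotation, and the first exon was that of the 5′-most protein-coding transcript. A gene's value in a tumor was the mean percent over its sites. A likelihood ratio test of a logistic model was made per site, and the sites of a region were combined by signed Stouffer z, two-sided, and adjusted by Benjamini-Hochberg over all regions (FDR under 0.05). edgeR's quasi-likelihood test on summed methylated and unmethylated counts took in the spread between tumors. Tested on simulated data, the test on reads found the changed genes, and where the simulated tumors of a line varied it also called unchanged genes, while edgeR's test then called no unchanged gene and missed some of the changed ones. The simulated variation was drawn for each site on its own, so no tumor shifted a whole region, as tumors did here. The simulation therefore does not show how often either test errs in these data. Alternatives were the coverage minimum, strands merged, a coverage cap, thinning to equal depth, each tumor left out, other definitions of the regions, z without a sign, a minimum of 5 sites or 10 points, edgeR and replicate blocks.

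Members and gene lists were chosen with earlier results of these data known. All tumor values are given for members with at least 5 sites in a region, C-type members, and members called with at least 20 points; the site with the largest difference without overlap in each cluster; genes of the other lists called with at least 5 points, except 1 leukocyte gene that is not described here; and neighbours of the clusters. Pcdha10 and Pcdha11 share a symbol in the annotation and were told apart by their RefSeq names. Tools were R 4.3.3 with edgeR 4.0.16, and Python 3.11.15 with matplotlib 3.10.9, numpy 2.4.6, pandas 2.3.3 and scipy 1.17.1.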

Additional observations from a re-analysis of the deposited data

How the results depend on the processing

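The count of called member promoters stayed within 1.5 times of 12, and that of first exons within 1.5 times of 27, under most settings. These were the other coverage minimums, merged strands, the coverage cap, equal depth and the other region definitions. The counts also stayed in range without the site of the largest difference of each member (10 and 21) and with a minimum of 5 sites (8 and 19). They did not under 3 others or with edgeR's block. With z scores without a sign 22 promoters were called (94.6% of all promoters), but the 39 first exons (87.0% of all) stayed within that range; with a minimum difference of 10 points 5 promoters and 5 first exons were called (11.0 and 9.71% of all); and by edgeR's test 0 and 0. With 1 tumor left out, promoter differences ran from -1.47 to 13.9 points in Pcdha, -18.7 to 0.680 in Pcdhb, -6.54 to 7.06 in Pcdhg and -7.03 to 7.29 over all members. First exon differences ran from -8.67 to 3.60, -10.3 to -7.49, -3.49 to 5.64 and -6.31 to 1.86 points.

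Called regions that turned with 1 tumor left out were the promoters of Pcdhac1 (-3.96 to 16.6 points), Pcdhac2 (-5.63 to 20.6), Pcdhga1 (-16.2 to 4.15), Pcdhga8 (-13.1 to 11.2), Pcdhgb5 (-9.87 to 21.2), Cd3e (-31.9 to 3.08), Cldn4 (-18.6 to 0.274), Itgal (-0.963 to 25.7), Tie1 (-28.1 to 2.53), Pcdh7 (-12.3 to 20.3), Pcdh8 (-7.18 to 14.2), Cyfip2 (-1.65 to 8.71), Pdgfra (-4.64 to 14.4) and Krt19 (-7.77 to 1.12), and the first exons of Pcdhac1 (-6.24 to 12.2), Pcdhac2 (-5.83 to 17.9), Pcdhga8 (-11.5 to 7.34), Pcdhga10 (-4.05 to 9.61), Pcdhga11 (-2.10 to 10.7), Pcdhgb5 (-4.36 to 9.35), Pcdhgb6 (-3.49 to 11.4) and Pcdhgc5 (-3.46 to 3.78). Regions that turned under other settings were the Pcdhga8 promoter at 50 reads (0.0191 points) and without the site of its largest difference (0.191), Pcdh7 (-2.51) and Cyfip2 (-0.197) with the 5′-most start alone, Pcdh7 with RefSeq transcripts (-2.44), the Pcdhgc5 first exon at 10 reads (-0.391), the first exons of Pcdhac1 (-9.68), Pcdhga10 (-0.241) and Pcdhgc3 (1.39) without promoter sites, and Stag2 with sites of 1 window only (0.625). Of the other lists, a minimum of 5 sites left 1 of 3 leukocyte promoters called (5 of 8 without it). It left 2 of 2 endothelial and stromal promoters called (4 of 7) and 1 of 4 epithelial ones (3 of 6), against 35.3% of all promoters. With sites of 1 window only 3 of 21 genes that control the clusters were called (5 of 24), against 42.8% of all promoters. At 50 reads 1 of 27 neighbouring genes was called (4 of 30), against 37.9% of all promoters. Counts with 1 tumor left out are not given for these lists, since a line is then read from 1 tumor. By z without a sign 11, 23, 13, 6 and 24 promoters were called in the protocadherins outside the clusters, the genes that control them, the partners, the epithelial genes and the neighbours, and with a minimum of 10 points 1, 1, 0, 0 and 1, and 1 endothelial or stromal gene. Of all promoters 94.6% were called by z without a sign and 11.0% with the minimum of 10 points. The cause of these changes in count was not tested.

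With the replicate number as a replicate block, edgeR's test called 1 of 23 member promoters, Pcdhgc5 (adjusted p = 0.0331), against 12.1% of all promoters. It called 0 of 39 first exons, against 7.59% of all first exons (8 at an unadjusted p under 0.05, against 18.4%). The Mantel-Haenszel test with the block called 12 promoters, 11 of them among those called without the block, and 30 first exons (37.5 and 31.5% of all). Called only with the block were both regions of Pcdhgc4 and the first exons of Pcdha4 and Pcdhgb7, and only without it the promoter of Pcdhga8. Among the other lists edgeR's test with the block called Pcdh18 of 11 protocadherins outside the clusters and Dnmt3b of 24 genes that control them. It also called Fyn and Ret of 13 partners, Adgre1 of 8 leukocyte genes and Kdr of 7 endothelial and stromal genes. Of 30 neighbouring genes it called 1. The share of all promoters called with the block was 12.1%, and without the block 0 genes of these lists were called. Over all regions the block moved edgeR's calls from 15 to 2444 promoters and from 3 to 1115 first exons. Around the mean of each line, same-numbered tumors moved together (r = 0.663 over all promoters and 0.672 over all first exons; genes are not independent), but the labels do not say that a number marks a shared batch.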
